A study of Homo sapiens with 15 samples.

Results

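The 44 genes described here are interferon-stimulated antiviral genes, a set of genes many of whose products block steps of virus infection. They were taken by gene symbol from the table of read counts, which lists 60286 genes. Each of the 44 had 1 row, and all 44 passed the filter on low counts that left 17198 genes for testing. The choice used no measured value of these libraries, but it was made with earlier results of the same data known. Bacterial extracellular vesicles (BEVs), small membrane sacs that bacteria shed, were prepared by 2 methods and given to cultured cells. The RNA-seq libraries, 15 in number, were made from THP-1 cells in 5 groups of 3. THP-1 is a human monocytic leukaemia line, here with the wild-type genotype in every group, and the study's methods give 6 hours of stimulation where the labels give Day 0.

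The control group, named NC, received PBS. EUC and EPL cells received *E. coli* BEVs at 1 μg/mL of protein, and SUC and SPL cells received *S. aureus* BEVs at 10 μg/mL. The last letters of these names give the isolation method: UC is ultracentrifugation, and PL is precipitation with ε-poly-L-lysine, a positively charged polymer. Species and dose therefore change together and cannot be told apart, and all groups were made in 1 cell line. No label says whether the 3 libraries of a group came from separate cultures, so the p-values below measure the spread between these libraries, which may be technical. The total count per library ranged from 14399421 to 16637345. Of 10 markers of monocytic cells, 9 had a mean of at least 1 CPM (counts scaled to the TMM-normalised library size), among them CSF1R, SPI1 and ITGAM. CD68 was close to 0 in every library, with 0 to 3 counts. Markers of other cell types were also summed. The 5 T cell markers came to between 277 and 285 CPM in NC and between 269 and 318 CPM in stimulated libraries, nearly all of it CD4, while CD3D and CD3G had no count. The 3 markers of plasmacytoid dendritic cells came to between 6.82 and 10.4 CPM in NC and between 10.1 and 22.4 CPM in stimulated libraries. TCF4 made up most of this and was called higher in EUC and EPL, while CLEC4C had no count in any library. The 3 fibroblast markers went from between 0.640 and 0.941 CPM to between 2.06 and 6.96 CPM. COL1A1 and DCN were called higher in all 4 groups, while COL1A2 had 1 count in all libraries together. The 3 B cell markers came to at most 5.43 CPM, the 3 NK cell markers to at most 12.6 CPM and the 3 epithelial markers to at most 0.384 CPM. The part of other cells in the results below was not tested.

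Interferon-stimulated genes are kept low in resting cells and are switched on together when interferon binds its receptor. The receptor's kinases JAK1 and TYK2 then set off a complex that contains STAT2 and IRF9 and binds a short promoter sequence, the interferon-stimulated response element (ISRE). Monocytes and macrophages are known to reach this programme after sensing bacterial products, since Toll-like receptors can lead to the making of interferon beta. The products act at many steps: membrane proteins hinder virus entry and release, RNA-binding proteins and nucleases meet foreign RNA, and ubiquitin-like and ADP-ribose tags change other proteins.

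The libraries EUC3, EPL1 and SUC3 stood apart from the other libraries of their groups. A chi-square comparison of counts, divided by the number of genes, gave between 15.6 and 46.3 for each of these libraries against its group members. It gave between 2.21 and 7.11 for all other pairs within a group. Every pair of libraries within a group differed by more than sampling noise. In the members, the departure followed transcript length: across the 44 genes, the deviation of log2 CPM from the group mean correlated with the log of the canonical transcript length with r of -0.79 in EUC3, -0.76 in EPL1 and -0.78 in SUC3. These genes share a library and are not replicates. Over 17174 genes with a length the same correlations were -0.17, -0.16 and -0.19. In the NC and SPL libraries the correlation over the members lay between -0.485 (SPL2) and 0.447 (NC1). Long members such as OAS3 were low in these libraries, and short members such as ISG15 were high. The labels require an RNA integrity number above a limit but give none per library, and the part of RNA quality in this pattern was not tested. For each comparison, a count of members is also given without these libraries. They were picked for their distance from their groups, so leaving them out narrows the spread within groups by that choice. Fold changes of single genes against NC and overlaps of libraries are given with all libraries, except where stated. In EUC, the log2 fold change of ISG15 was 3.66 with all libraries and 3.37 without these. That of OAS3 was 3.99 and 4.20.

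**Figure D1:**
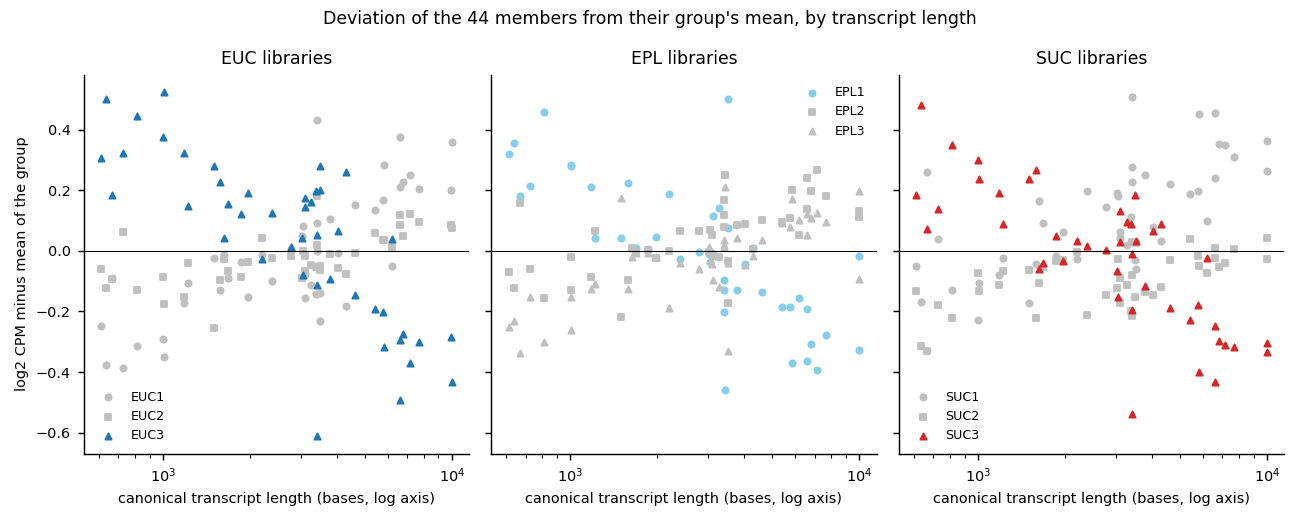
Deviation of the 44 members from their group's mean log2 CPM (vertical axis) against the length of the Ensembl canonical transcript in bases (horizontal log axis), for the EUC, EPL and SUC libraries. Each point is a gene in a library, coloured where the library is EUC3, EPL1 or SUC3: their points fall from short to long transcripts, with r of -0.79, -0.76 and -0.78, and the grey points of the other libraries rise. The deviations of a gene cancel out within a group, so the grey points must rise in sum where the coloured points fall.

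The antiviral genes were higher in BEV-stimulated cells of every group than in NC. A gene was called when its adjusted p in edgeR's quasi-likelihood test (Benjamini-Hochberg over all tested genes) was at most 0.01 and it changed by at least 2-fold. By this rule, 41 of 44 members rose in EUC, where 9.43% of all tested genes did. In EPL 41 rose, against 9.38% of all genes, in SUC 40 against 6.82%, and in SPL 41 against 7.76%. None was called lower in edgeR or in DESeq2, and none was lower at an unadjusted p under 0.05, while 5.75%, 5.15%, 3.06% and 3.7% of all genes were called lower in EUC, EPL, SUC and SPL. The 40 members that rose in all 4 comparisons are set against 6.33% of all genes. These comparisons share the NC libraries. In bulk RNA, a change in the number of responding cells and a change of RNA per cell cannot be told apart.

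The median log2 fold change of the members was 3.05 (EUC), 2.997 (EPL), 2.50 (SUC) and 2.60 (SPL), where the median of all tested genes lay within 0.01 of 0. As folds these medians are 8.26, 7.99, 5.66 and 6.06. Averaged over the 4 comparisons on the log2 scale, 1 member rose by 32-fold or more, 7 by between 16-fold and 32-fold, 13 by between 8-fold and 16-fold, 9 by between 4-fold and 8-fold, and 11 by between 2-fold and 4-fold. The other 3 members stayed under 2-fold. In 43 of 44 members every library of a stimulated group lay above all 3 NC libraries, in each of the 4 groups. Over all genes this held for 25.9% (EUC), 26.2% (EPL), 24.2% (SUC) and 26.9% (SPL). Summed over the members, the level was between 1874 and 1892 CPM in NC, between 10198 and 11480.0 CPM in the *E. coli* groups and between 7386 and 9282 CPM in the *S. aureus* groups. Without EUC3, EPL1 and SUC3, the counts of called members were again 41, 41, 40 and 41.

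**Figure D2:**
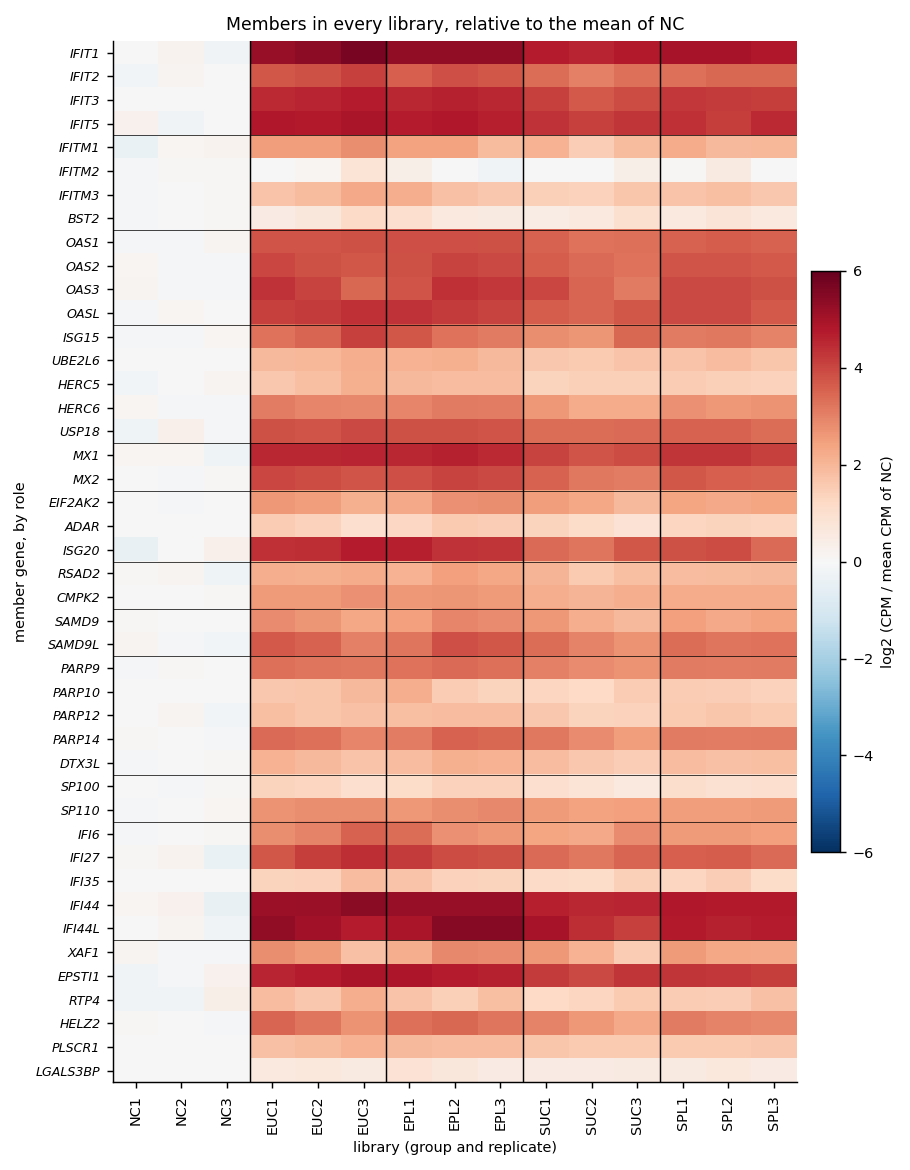
Level of each of the 44 members in every library, as the log2 ratio of its CPM to the mean CPM of NC. Rows are genes grouped by role, columns are the 15 libraries, and red marks values above the NC mean; the 12 stimulated libraries are red in nearly all rows, and IFITM2, BST2 and LGALS3BP stay pale.

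**Figure D3:**
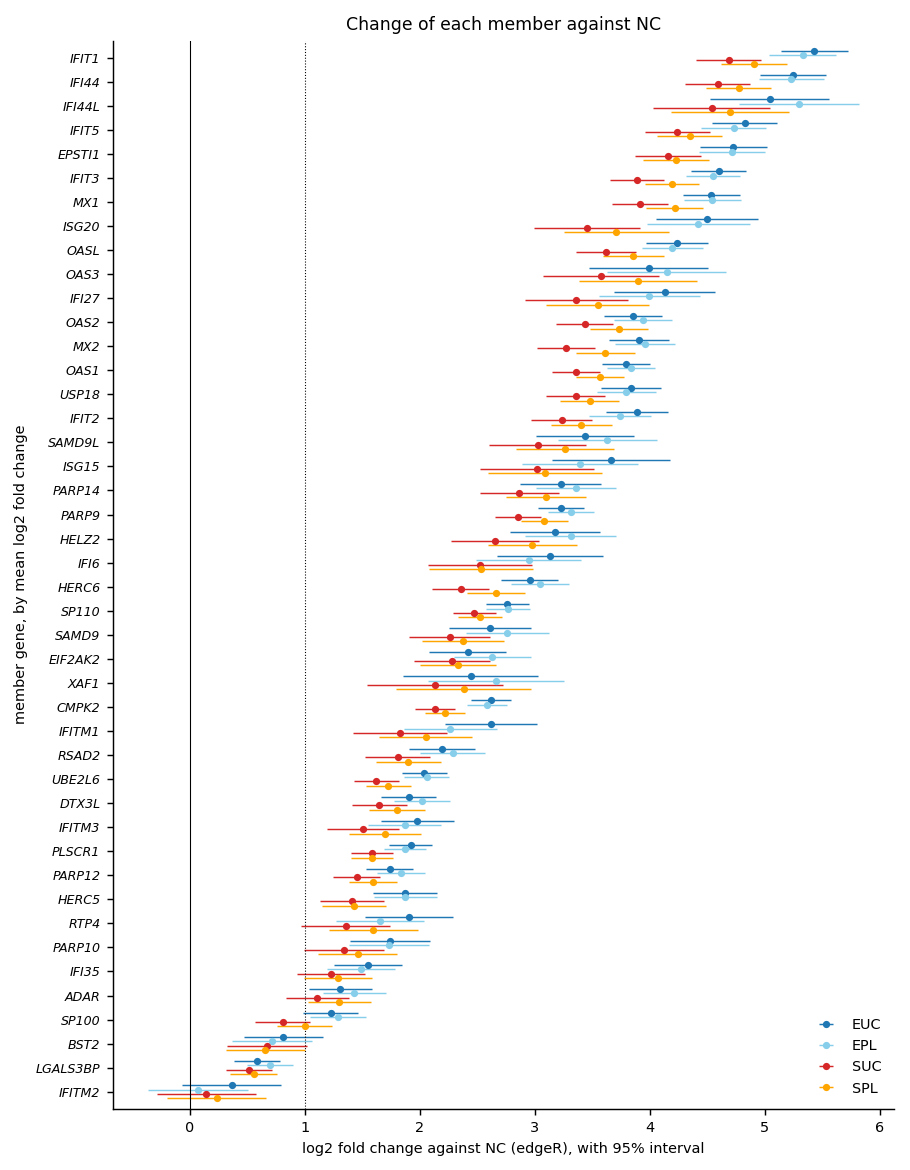
Log2 fold change of each member against NC (points) with its 95% interval (bars) in EUC, EPL, SUC and SPL, from edgeR. Genes are sorted by the mean over the comparisons, from 5.09 for IFIT1 to 0.20 for IFITM2, and the dotted line marks a 2-fold change.

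The promoters of the members were searched for the response element. RefSeq promoter windows of GRCh38.p14, from 250 bases before to 50 bases after a transcription start, were at hand for 37 of the 44 members and for 27305 genes in all. IFIT2, IFITM2, OAS2, OASL, USP18, MX2 and PARP10 were not matched. The ISRE-type motif GAAANNGAAA, read on both strands, lay in the windows of 26 of 37 members (70.3%) and of 4.38% of all genes. In the bases before the start alone it lay in 24 members (64.9%) and 3.71% of all genes. Of the 26 members with a match in the whole window, 25 had one that began within 150 bases before the start, and 13 had 2 or more matches in 1 window. A GAS-type motif, TTCNNNGAA, was found in 10 members (27.0%) against 9.38% of all genes, and 6 of its 13 matches overlapped an ISRE-type match. A kappa B-type motif, GGGANNTTCC, was found in OAS3 alone (2.7%) against 1.97% of all genes. A match is a description of letters and not a binding site.

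The stretches below are shown as examples of the motif in members with a large rise (IFIT1, IFI44, EPSTI1, ISG20 and OAS3), in members with a high level (ISG15 and IFITM3), and in a pair that changed by less than 2-fold (BST2 and LGALS3BP). They are from GRCh38.p14, 5′ to 3′ on the strand of the gene, with the motif or its reverse complement in capitals. They lie at chr10:89392492-89392544 (IFIT1, plus strand), chr1:78649756-78649788 (IFI44, plus), chr13:42992267-42992306 (EPSTI1, minus), chr15:88638932-88638971 (ISG20, plus), chr12:112938316-112938355 (OAS3, plus), chr1:1013369-1013414 (ISG15, plus), chr11:320871-320927 (IFITM3, minus), chr19:17405730-17405775 (BST2, minus) and chr17:78979957-78979996 (LGALS3BP, minus).
IFIT1: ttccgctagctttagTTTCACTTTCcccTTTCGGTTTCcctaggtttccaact
IFI44: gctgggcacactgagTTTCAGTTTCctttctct
EPSTI1: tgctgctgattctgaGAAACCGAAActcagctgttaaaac
ISG20: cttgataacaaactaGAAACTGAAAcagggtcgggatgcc
OAS3: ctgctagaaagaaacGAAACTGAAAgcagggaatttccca
ISG15: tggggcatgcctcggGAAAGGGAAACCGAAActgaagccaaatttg
IFITM3: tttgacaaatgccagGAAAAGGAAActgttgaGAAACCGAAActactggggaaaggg
BST2: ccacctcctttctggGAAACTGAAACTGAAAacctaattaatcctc
LGALS3BP: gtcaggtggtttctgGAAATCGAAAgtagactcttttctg

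Members with and without the motif overlapped in the size of their change. Members with a match had a median log2 fold change, averaged over the 4 comparisons, of 2.95 and ranged from 0.59 to 5.09. The 11 members with a window and no match had a median of 2.41 and ranged from 1.08 to 3.64. Of the members with a match, 10 lay above 3.64, which is the largest value among those without one. BST2 and LGALS3BP carry the motif and stayed under 2-fold, and OAS1 and SAMD9L have none in the window and averaged 3.64 and 3.34 on the log2 scale. The windows cover the starts listed in that table and no distal sequence.

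**Figure D4:**
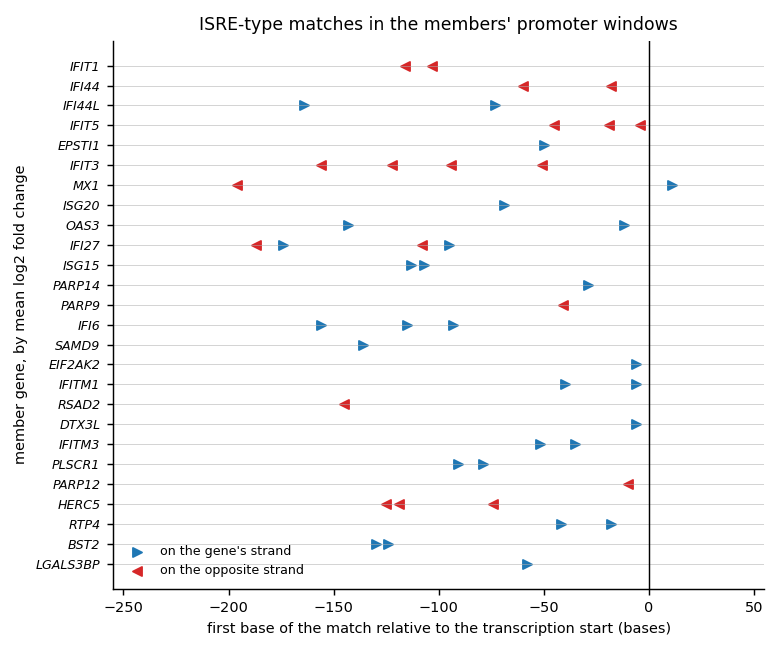
Position of each ISRE-type match relative to the transcription start in bases (horizontal axis) in the 26 members that have one, sorted by mean log2 fold change from IFIT1 at the top. Triangles point along the strand of the match, and 25 of the 26 members have a match that begins within 150 bases before the start.

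The 4 IFIT proteins bind RNA, and IFIT1 is known to hold RNA that lacks the methylated cap of the host's own messages. All 4 genes rose in all comparisons, between 9.41-fold and 43.2-fold. IFIT1, the member with the largest mean change, stood at 4.80, 5.53 and 4.17 CPM in NC, 183, 197 and 248 in EUC, 196, 196 and 193 in EPL, 127, 115 and 132 in SUC and 149, 149.9 and 137 in SPL. Every stimulated library lay far above NC, and no *E. coli* library overlapped an *S. aureus* library. Its log2 fold changes were 5.43 (EUC), 5.33 (EPL), 4.69 (SUC) and 4.91 (SPL), with adjusted p of at most 6.05e-14. IFIT3, which stabilises complexes of its relatives, stood at 10.0, 10.2 and 10.2 CPM in NC, 229, 242 and 268 in EUC, 234, 249 and 232 in EPL, 172, 129 and 152 in SUC and 193, 185 and 179 in SPL. Its groups were again apart, first NC, then *S. aureus*, then *E. coli*, and its log2 fold changes were 4.60 (EUC), 4.55 (EPL), 3.89 (SUC) and 4.19 (SPL). IFIT2 and IFIT5 rose by between 9.41-fold and 28.4-fold. The IFIT genes lie side by side at chr10:89283694-89421605.

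The IFITM proteins sit in cell membranes and hinder the fusion by which viruses enter, and BST2, also called tetherin, holds budding virus at the cell surface. The members of this group differed in their answer: 2 of 4 rose in all comparisons and 2 in none. IFITM1 stood at 3.90, 5.71 and 5.96 CPM in NC, 30.0, 29.9 and 36.3 in EUC, 28.1, 27.7 and 19.6 in EPL, 21.9, 14.5 and 19.2 in SUC and 24.2, 19.8 and 20.8 in SPL. Every stimulated library lay above NC, with log2 fold changes of 2.62 (EUC), 2.27 (EPL), 1.83 (SUC) and 2.05 (SPL) and standard errors near 0.19. IFITM3 was already abundant in NC and rose from there, at 83.8, 87.4 and 92.2 CPM in NC, 288, 328 and 422 in EUC, 395, 301 and 266 in EPL, 239.5, 226 and 282 in SUC and 287, 302 and 265 in SPL. The log2 fold changes of IFITM3 were 1.98 (EUC), 1.87 (EPL), 1.51 (SUC) and 1.70 (SPL), and its *E. coli* and *S. aureus* libraries overlapped.

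IFITM2 was the only member whose stimulated libraries overlapped those of NC in every group, at 24.1, 27.2 and 27.2 CPM in NC, 25.6, 28.8 and 46.9 in EUC, 33.1, 26.9 and 22.7 in EPL, 26.7, 26.2 and 33.9 in SUC and 27.2, 38.3 and 27.0 in SPL. The high value of 46.9 CPM was in EUC3. Its log2 fold changes of 0.37 (EUC), 0.07 (EPL), 0.14 (SUC) and 0.24 (SPL) had adjusted p between 0.166 and 0.813. IFITM2, IFITM1 and IFITM3 are neighbours at chr11:303655-329475 and are closely alike in sequence, so the split of reads between them is uncertain, and 31.6% of the exon bases of IFITM1 lie in other annotated genes. BST2 passed the adjusted p but not the fold, at 145, 157 and 165 CPM in NC, 219.5, 253 and 349 in EUC, 308, 231 and 227 in EPL, 209, 233 and 302 in SUC and 236, 266 and 234 in SPL. All stimulated libraries of BST2 were above NC, and its log2 fold changes were 0.82 (EUC), 0.72 (EPL), 0.67 (SUC) and 0.66 (SPL), with adjusted p between 0.000623 and 0.00439.

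Oligoadenylate synthetases make a short messenger nucleotide when they meet viral RNA, and that messenger switches on the nuclease RNase L. OAS1, OAS2, OAS3 and the related OASL all rose in all comparisons, between 10.3-fold and 18.9-fold. OASL, which has lost the synthetase activity, stood at 4.54, 5.12 and 4.71 CPM in NC, 83.4, 87.3 and 101 in EUC, 96.9, 86.5 and 80.7 in EPL, 59.7, 54.5 and 62.9 in SUC and 74.0, 73.9 and 61.2 in SPL. Its *E. coli* libraries lay above all *S. aureus* libraries, and its log2 fold changes were 4.24 (EUC), 4.20 (EPL), 3.62 (SUC) and 3.86 (SPL). OAS3 stood at 57.3, 48.2 and 46.7 CPM in NC, 1015, 848 and 555 in EUC, 688, 1047 and 964 in EPL, 803, 577 and 434 in SUC and 781, 778 and 716 in SPL. The values in EUC3, EPL1 and SUC3 were the lowest of their groups. The libraries of the 2 species overlapped through EUC3 and EPL1 alone, and the other *E. coli* libraries lay above all *S. aureus* libraries. OAS3 had log2 fold changes of 3.99 (EUC), 4.15 (EPL), 3.58 (SUC) and 3.90 (SPL), with standard errors near 0.24, wider than those near 0.13 for OASL. OAS1 and OAS2 changed by between 10.3-fold and 15.4-fold, and the 3 OAS genes share the region chr12:112905856-113011723.

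ISG15 is a ubiquitin-like protein that is attached to other proteins, UBE2L6 and HERC5 are the enzymes that pass it on, and USP18 takes it off again and also holds back the interferon receptor. All 5 genes of this system, with the HERC5 relative HERC6, rose in all comparisons. The changes differed in size between members of the same pathway, from 2.65-fold to 14.3-fold. USP18 changed most, at 5.37, 7.94 and 5.84 CPM in NC, 89.2, 86.2 and 99.5 in EUC, 89.5, 89.3 and 88.6 in EPL, 64.8, 64.2 and 67.9 in SUC and 75.0, 74.3 and 65.0 in SPL. Its log2 fold changes were 3.84 (EUC), 3.80 (EPL), 3.36 (SUC) and 3.48 (SPL), and its *E. coli* libraries lay above all *S. aureus* libraries. ISG15 stood at 30.3, 30.2 and 33.7 CPM in NC, 297, 354 and 546 in EUC, 416, 298 and 277 in EPL, 221, 199.6 and 346 in SUC and 273, 282 and 248 in SPL. EUC3, EPL1 and SUC3 were the highest libraries of their groups for this short transcript, and the groups of the 2 species overlapped. The log2 fold changes of ISG15 were 3.66 (EUC), 3.39 (EPL), 3.02 (SUC) and 3.09 (SPL), with standard errors near 0.24. UBE2L6 changed by 4.12-fold in EUC and 3.08-fold in SUC. HERC6 changed by 7.76-fold and 5.12-fold in these groups, and HERC5 by 3.66-fold and 2.65-fold.

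MX1 and MX2 are dynamin-like GTPases that trap viral nucleoprotein complexes. MX1 stood at 5.44, 5.47 and 4.23 CPM in NC, 118, 116 and 118 in EUC, 118, 123 and 113 in EPL, 84.1, 68.7 and 76.2 in SUC and 99.3, 97.1 and 85.4 in SPL. Its 3 EUC libraries were close together, and all *E. coli* libraries lay above all *S. aureus* libraries. The log2 fold changes of MX1 were 4.54 (EUC), 4.55 (EPL), 3.92 (SUC) and 4.22 (SPL), with standard errors near 0.12. MX2 stood at 24.5, 23.2 and 26.2 CPM in NC, 394, 374 and 342 in EUC, 358, 404 and 388 in EPL, 287, 224 and 206 in SUC and 323, 299 and 285 in SPL. It showed the same order of groups without overlap of the species, and its log2 fold changes were 3.91 (EUC), 3.96 (EPL), 3.28 (SUC) and 3.62 (SPL).

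EIF2AK2 (PKR) stops translation when it binds viral RNA, ADAR edits adenosine to inosine in paired RNA, and ISG20 is an exonuclease that degrades RNA. All 3 rose in all comparisons, from 2.16-fold for ADAR in SUC to 22.6-fold for ISG20 in EUC. ISG20 stood at 1.15, 1.59 and 1.91 CPM in NC, 32.1, 32.9 and 41.2 in EUC, 38.9, 31.2 and 30.5 in EPL, 16.5, 14.6 and 20.5 in SUC and 21.6, 23.2 and 16.5 in SPL. The 6 *E. coli* libraries held between 30.5 and 41.2 CPM and the 6 *S. aureus* libraries between 14.6 and 23.2 CPM, without overlap. Its log2 fold changes were 4.50 (EUC), 4.42 (EPL), 3.46 (SUC) and 3.71 (SPL). ADAR stood at 516, 510.2 and 506 CPM in NC, 1448, 1327 and 1019.9 in EUC, 1202, 1508 and 1423 in EPL, 1289.6, 1099.6 and 919 in SUC and 1267, 1278 and 1230.4 in SPL. All stimulated libraries lay above NC, and the log2 fold changes of 1.31 (EUC), 1.43 (EPL), 1.11 (SUC) and 1.301 (SPL) were small beside those of ISG20. In SUC its log2 fold change came to 0.99 without SUC1, so that the call there rests on that library. EIF2AK2 changed by 4.86-fold to 6.20-fold.

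RSAD2 (viperin) makes a nucleotide that ends viral RNA chains, and the gene next to it, CMPK2, encodes a mitochondrial nucleotide kinase. CMPK2 stood at 44.5, 44.5 and 48.5 CPM in NC, 266, 268 and 311 in EUC, 274, 285 and 267 in EPL, 209.8, 189 and 205 in SUC and 211, 215 and 216 in SPL. Replicates were close, the species did not overlap, and the log2 fold changes were 2.62 (EUC), 2.59 (EPL), 2.13 (SUC) and 2.22 (SPL) with standard errors near 0.08. RSAD2 stood between 7.51 and 10.1 CPM in NC and between 27.0 and 49.1 CPM in stimulated libraries. It rose by between 3.50-fold and 4.88-fold. The pair lies head to head at chr2:6840570-6898239, where 6.2% and 8.0% of their exon bases overlap on opposite strands.

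SAMD9 and SAMD9L, neighbours at chr7:93099513-93148385, restrict poxviruses. SAMD9L stood at 36.8, 31.5 and 29.5 CPM in NC, 413, 378 and 268 in EUC, 302, 477 and 432 in EPL, 332, 254 and 211 in SUC and 328, 299.7 and 313 in SPL. EUC3, EPL1 and SUC3 held the lowest value of their groups for this long transcript, and all stimulated libraries lay above NC. Its log2 fold changes were 3.44 (EUC), 3.63 (EPL), 3.03 (SUC) and 3.27 (SPL). SAMD9 rose by between 4.79-fold and 6.78-fold.

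PARP9, PARP10, PARP12 and PARP14 belong to the family that handles ADP-ribose, and DTX3L is a ubiquitin ligase that works in a complex with PARP9. All 5 rose in all comparisons, between 2.54-fold and 10.3-fold. PARP14 changed most of them and stood at 64.1, 61.5 and 56.5 CPM in NC, 647, 600.1 and 455 in EUC, 509, 700.3 and 659.5 in EPL, 540.5, 438 and 349.7 in SUC and 528, 511 and 519.8 in SPL. All stimulated libraries lay above NC, with SUC3 the lowest of them, and its log2 fold changes were 3.23 (EUC), 3.36 (EPL), 2.87 (SUC) and 3.10 (SPL). PARP9 and DTX3L, which lie together at chr3:122527924-122575203, changed by 9.39-fold and 3.74-fold in EUC. The partners thus differed in the size of their change. PARP10 and PARP12 each changed by 3.34-fold in EUC.

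SP100 and SP110 are proteins of nuclear bodies. SP110 stood at 21.1, 23.2 and 24.5 CPM in NC, 150.5, 157 and 160.3 in EUC, 139.8, 161 and 167 in EPL, 137, 121 and 126 in SUC and 132, 131 and 133 in SPL. It rose in all comparisons, with log2 fold changes of 2.76 (EUC), 2.76 (EPL), 2.48 (SUC) and 2.53 (SPL). SP100 stood at 63.3, 59.3 and 65.8 CPM in NC, 160.4, 152 and 128 in EUC, 134, 163 and 163 in EPL, 125, 112 and 93.5 in SUC and 131, 120.2 and 126 in SPL. All its stimulated libraries lay above NC, but its change was close to the 2-fold limit, with log2 fold changes of 1.23 (EUC), 1.29 (EPL), 0.81 (SUC) and 1.00 (SPL). It was called in EUC, EPL and SPL and not in SUC, where the adjusted p was 2.46e-05. In SPL its log2 fold change fell to 0.97 without NC2 and to 0.98 without SPL1, and the call was lost in both cases.

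Of the genes named IFI for interferon-induced, IFI6 is a small membrane protein that hinders replication of flaviviruses, and IFI27 is a small mitochondrial protein. IFI44 and IFI44L are neighbours at chr1:78619902-78664078, and IFI35 is a cytoplasmic protein. All 5 rose in all comparisons, between 2.34-fold and 39.4-fold. IFI44 stood at 3.97, 4.47 and 2.68 CPM in NC, 132, 134 and 157 in EUC, 141, 139 and 139 in EPL, 95.3, 86.3 and 87.1 in SUC and 104, 101 and 99.6 in SPL. It was low in NC and at 86.3 CPM or more in every stimulated library, with the species apart. Its log2 fold changes were 5.25 (EUC), 5.23 (EPL), 4.59 (SUC) and 4.77 (SPL). IFI6 stood at 49.6, 54.6 and 57.0 CPM in NC, 370.1, 421 and 627 in EUC, 555, 362 and 328 in EPL, 278, 261 and 388 in SUC and 314, 321 and 299 in SPL. EUC3, EPL1 and SUC3 were the highest of their groups, and the log2 fold changes were 3.14 (EUC), 2.95 (EPL), 2.52 (SUC) and 2.53 (SPL), with 23.1% of its exon bases shared with another annotated gene. IFI44L rose by between 23.2-fold and 39.4-fold, IFI27 by between 10.3-fold and 17.5-fold, and IFI35 by between 2.34-fold and 2.92-fold.

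The remaining 6 members have separate roles, and 5 of them rose in all comparisons. EPSTI1, a gene first described in contact between epithelial and stromal cells, stood at 4.74, 5.18 and 6.56 CPM in NC, 130.4, 143 and 164 in EUC, 156, 143 and 135 in EPL, 101, 86.7 and 107 in SUC and 108, 105 and 97.2 in SPL. The *E. coli* libraries lay above all *S. aureus* libraries, and the log2 fold changes were 4.73 (EUC), 4.71 (EPL), 4.16 (SUC) and 4.23 (SPL). HELZ2, a helicase known as a coactivator of nuclear receptors, stood at 89.9, 86.2 and 82.0 CPM in NC, 976, 801 and 563 in EUC, 844, 922 and 800.0 in EPL, 683, 520.2 and 420.5 in SUC and 738, 673 and 627 in SPL. EUC3 and SUC3 were low in their groups, and the log2 fold changes were 3.18 (EUC), 3.31 (EPL), 2.65 (SUC) and 2.98 (SPL). XAF1, which counters an inhibitor of apoptosis, changed by between 4.39-fold and 6.35-fold, with 38.3% of its exon bases shared with a gene on the other strand. The Golgi-linked RTP4 changed by between 2.56-fold and 3.75-fold, and the phospholipid scramblase PLSCR1 by between 2.99-fold and 3.79-fold. LGALS3BP, a secreted glycoprotein that binds galectin, was not called, at 18.0, 18.4 and 18.8 CPM in NC, 27.3, 28.4 and 27.1 in EUC, 33.9, 29.7 and 26.0 in EPL, 25.8, 26.2 and 26.9 in SUC and 27.0, 28.1 and 26.0 in SPL. Its stimulated libraries lay above NC by a small margin, with log2 fold changes of 0.59 (EUC), 0.70 (EPL), 0.51 (SUC) and 0.56 (SPL) and adjusted p of at most 0.000446.

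Levels of different genes were compared per length, as RPKM (CPM per kilobase of canonical transcript). In NC the highest members were BST2 with 155 ± 10.4 RPKM (SD, n = 3), IFITM3 with 144 ± 6.90, ADAR with 77.3 ± 0.707, IFI6 with 66.2 ± 4.66 and ISG15 with 49.4 ± 3.14. In the 12 stimulated libraries the first 5 were the same genes in another order. ISG15 averaged 492 RPKM and ranged from 313 to 857, IFITM3 averaged 491 and ranged from 370.2 to 691, and IFI6 averaged 464 and ranged from 322 to 772. These 3 neighbours in the order overlapped widely. BST2 followed with 255 and ADAR with 189 RPKM. IFIT1, first by fold change, had a level of 1.12 ± 0.158 RPKM in NC and 39.2 in stimulated libraries, which was rank 23 of 44. The lowest level in stimulated libraries was that of HERC5, with 5.86 RPKM. With the length of all annotated exons merged in place of the canonical transcript, IFI6 came first and ISG15 second, and the same 5 genes held the first 5 places.

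Whether the bacterial species of the BEVs mattered was asked by setting the mean of EUC and EPL against the mean of SUC and SPL, with the caveat that the dose differs with the species. All 44 members had a higher fitted level with *E. coli* BEVs, by a median of 0.38 on the log2 scale (1.303-fold), where the median of all genes was 0. No member reached 2-fold: 0 of 44 were called higher by edgeR and by DESeq2, against 0.663% of all genes. At an unadjusted p under 0.05 there were 38, against 17% of all genes. At an adjusted p of at most 0.01 without a fold limit 22 of 44 members were higher, and 2.87% of all genes were. In 21 members all 6 *E. coli* libraries lay above all 6 *S. aureus* libraries, which held for 3.05% of all genes. Under library totals alone as the scaling, 43 of 44 were higher, the exception being IFITM2.

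The largest difference was in ISG20, with a log2 fold change of 0.88 (SE 0.113, adjusted p = 8.15e-05, 95% interval 0.64 to 1.12). IFI27 followed with 0.61, IFIT1 with 0.58, IFI44 with 0.56 and IFI44L with 0.55. IFIT3 had the smallest adjusted p of the members, 5.54e-05, with a log2 fold change of 0.53 (SE 0.0658). At the other end were BST2 with 0.10, LGALS3BP with 0.11, ADAR with 0.16 and IFITM2 with 0.03, all with intervals that include 0. ISG15 differed by 0.47 (SE 0.151, adjusted p = 0.0783) and OAS3 by 0.33 (SE 0.151, adjusted p = 0.27). Both had a smaller standard error once the libraries that stood apart were left out. Because these were picked for their distance from their groups, smaller standard errors and p-values follow in part from that choice. It also leaves EUC, EPL and SUC with fewer libraries. Without EUC3, EPL1 and SUC3 the difference was 0.36 (SE 0.0549, adjusted p = 2.8e-05) for ISG15 and 0.42 (SE 0.0712, adjusted p = 0.000137) for OAS3. For ISG20 it was then 0.82, and 37 of 44 members were higher at an adjusted p of at most 0.01, against 4.97% of all genes. The fitted level was then higher in 42 of 44, the exceptions being IFITM2 and BST2.

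**Figure D5:**
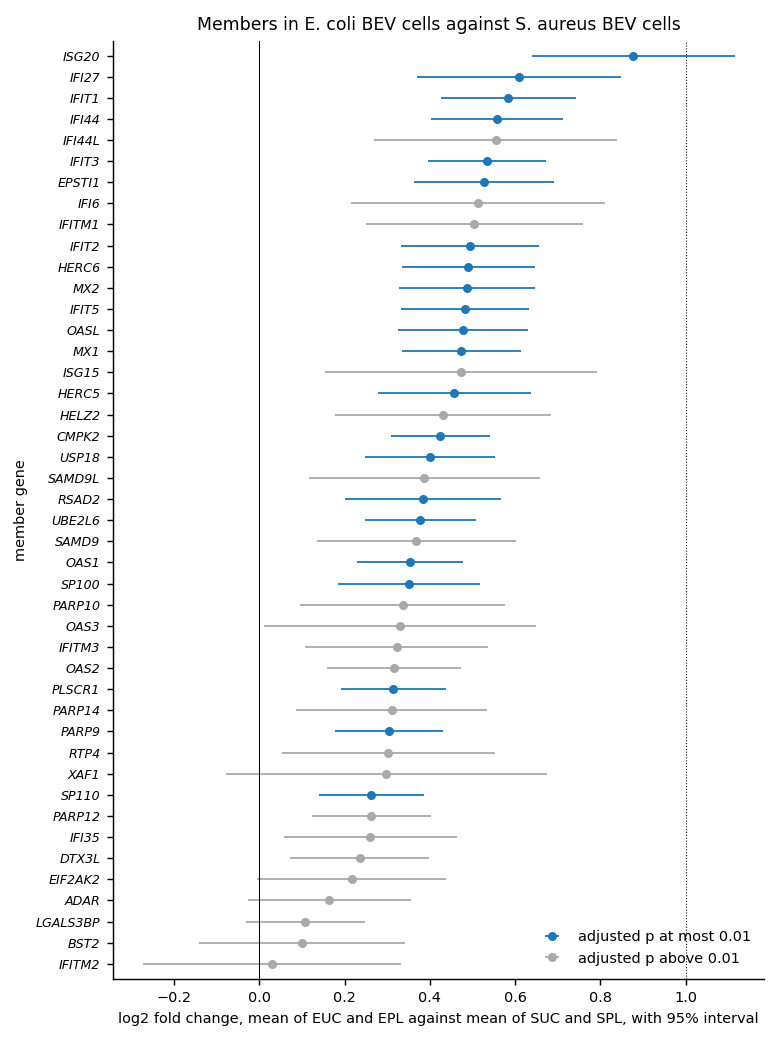
Log2 fold change of each member between the mean of EUC and EPL and the mean of SUC and SPL (points) with its 95% interval (bars), from edgeR. Blue marks an adjusted p of at most 0.01; all 44 points lie above 0, from 0.03 for IFITM2 to 0.88 for ISG20, and none reaches the dotted line at 2-fold.

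Within each isolation method the same question gave unequal counts. Unequal counts are not a test of a difference between the methods. That test, given below as the difference of the isolation methods compared between the species, called 0 of 44 members. Among BEVs isolated by UC, all 44 members were higher in EUC than in SUC, by a median of 0.45 on the log2 scale against -0.0054 for all genes. Of the members 1, ISG20, was called, with a log2 fold change of 1.04 (SE 0.16, adjusted p = 0.000661). Over all genes 0.733% were called higher. At an adjusted p of at most 0.01 without a fold limit 16 of 44 members were higher, against 2% of all genes. ISG20 was also called by DESeq2, and it was called at 1.06 without EUC3, EPL1 and SUC3 together, but the call was lost without EUC3 alone and without SUC2 alone. Among BEVs isolated by PL, 43 of 44 members were higher in EPL than in SPL, with IFITM2 the exception, by a median of 0.31 against 0.0078 for all genes. None was called by edgeR or by DESeq2, where 0.105% of all genes were, and in edgeR 0 passed an adjusted p of at most 0.01 without a fold limit, where 0.291% did. In DESeq2 4 members passed it (IFI44, CMPK2, EPSTI1 and ISG20), against 1.04% of all genes. At an unadjusted p under 0.05 there were 25 in edgeR, against 8.41% of all genes, and the smallest adjusted p in edgeR was 0.0298, for CMPK2. Without EUC3, EPL1 and SUC3, 29 members in the UC comparison and 23 in the PL comparison were higher at an adjusted p of at most 0.01 without a fold limit, against 3.33% and 2.33% of all genes. The fitted level was then higher in all 44 members in the UC comparison. In the PL comparison it was higher in 40 of 44, the exceptions being IFITM2, IFITM3, BST2 and PARP10.

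The isolation methods were compared within each species. For *E. coli* BEVs the members were about as often higher in EPL (23) as in EUC (21), with log2 fold changes between -0.35 for IFITM1 and 0.25 for IFI44L. None was called by edgeR or DESeq2, and in edgeR 0 of all 17198 tested genes were called. No member had an unadjusted p under 0.05, which 3.51% of all genes had. The 95% intervals of all 44 differences lay between -0.72 and 0.75 on the log2 scale, which does not show that the preparations act alike. Without the 3 libraries, 7 members had an unadjusted p under 0.05, against 7.41% of all genes.

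For *S. aureus* BEVs 43 of 44 members had a higher fitted level in SPL than in SUC, and BST2 was the exception. The median difference was 0.18 on the log2 scale (1.13-fold), where that of all genes was -0.0098. The members are read from the same libraries and are not replicates. None was called by edgeR or DESeq2, and in edgeR 1 of all 17198 tested genes was called. At an unadjusted p under 0.05 there were 8 (IFIT3, OAS1, OAS2, OASL, HERC6, MX1, MX2 and PARP9), against 5.81% of all genes, and the smallest adjusted p was 0.738. In 9 members all SPL libraries lay above all SUC libraries, which held for 6.87% of all genes. MX2 had the largest difference, 0.34 (SE 0.107, adjusted p = 0.755), with 323, 299 and 285 CPM in SPL and 287, 224 and 206 CPM in SUC, where SUC1 overlapped SPL. Without EUC3, EPL1 and SUC3, 18 members had an unadjusted p under 0.05, against 9.49% of all genes, 0 were called, and 40 of 44 were higher in SPL. The difference of the isolation methods was then compared between the species. It was called for 0 of 44 members by edgeR and DESeq2, and in edgeR for 0 of all 17198 tested genes. In edgeR 5 members (IFIT1, IFIT2, IFIT3, IFITM1 and MX1) had an unadjusted p under 0.05, IFIT2 just under it. This held for 3.83% of all genes, and every adjusted p of the members was 1. The fitted difference was below 0, meaning that EPL less EUC was lower than SPL less SUC, in 40 of 44 members. Its median was -0.15 in the members and 0.003 in all genes. Without EUC3, EPL1 and SUC3 it was below 0 in 31 of 44, 13 members had an unadjusted p under 0.05 against 12.6% of all genes, and the smallest adjusted p was 0.0355, for ISG15.

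The genes that carry the interferon signal were counted from a separate list of 45 genes that are not members. Of these, 30 passed the filter, 13 were called higher in EUC and in EPL, 10 in SUC and 11 in SPL, and 1 was called lower in each, where 9.43%, 9.38%, 6.82% and 7.76% of all tested genes were called higher. Of 13 ligand genes 9 had no count in any library, among them IFNG and the alpha interferons listed, and a count of 0 allows up to 3 counts, or 0.206 CPM in the smallest library. IFNB1, interferon beta, had 3, 2 and 0 counts in NC, 3, 9 and 22 in EUC, 14, 8 and 7 in EPL, 6, 15 and 10 in SUC and 3, 7 and 1 in SPL. These counts put it at or under 1.45 CPM. It stood at 0 to 0.192 CPM in NC, 0.195 to 1.45 in EUC, 0.437 to 0.919 in EPL, 0.410 to 0.937 in SUC and 0.0689 to 0.451 in SPL. Its SPL libraries overlapped NC, and EUC1 lay just above NC1. It was not called, with adjusted p between 0.0146 and 0.413, and counts this low do not show that it stayed unchanged. IFNL1, a lambda interferon, had 0 counts in NC and between 0 and 8 in each stimulated library, and it did not pass the filter.

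STAT2, which becomes part of the complex that binds the response element, rose from between 48.1 and 50.5 CPM in NC to between 191 and 343 CPM. IRF9, the DNA-binding part of the complex, was low, at no more than 3.20 CPM in NC and between 6.14 and 20.2 CPM in the stimulated libraries. The spread within EUC and SUC was wide, and IRF9 was called in all 4 comparisons with adjusted p of at most 0.00112. IRF7, a factor that drives interferon genes, changed by 8.15-fold in EUC and 5.63-fold in SUC. IRF8, a factor of the monocytic lineage, fell: it stood at 1029.6, 1063 and 1057 CPM in NC, 272, 331 and 341 in EUC, 267, 265 and 279 in EPL, 361, 425 and 404 in SUC and 329.6, 358 and 354 in SPL. All its stimulated libraries lay below NC, and its log2 fold changes were -1.74 (EUC), -1.96 (EPL), -1.40 (SUC) and -1.60 (SPL). The inhibitor SOCS3 rose by between 7.48-fold and 12.4-fold. Of the 5 receptor genes tested, 2 were called higher in EUC and in EPL, and 1 in SUC and in SPL. The receptor gene IFNAR1 was not among them and changed by less than 2-fold. Its log2 fold changes were 0.57 (EUC), 0.58 (EPL), 0.52 (SUC) and 0.46 (SPL).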

How the data were processed

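RNA was extracted from THP-1 cells with Trizol and made into libraries with an NEB kit. The submitters' processing notes name FastQC 0.11.5, HISAT2 2.1.0, StringTie 1.3.3b, DESeq 1.28.0, featureCounts and the build hg38. The authors deposited whole-number read counts per Ensembl gene for 15 libraries, without normalization. The counting program, how it treated strand and the gene models it used are not stated in the labels or methods, so reads of overlapping genes cannot be told apart. All columns of values were used.

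Libraries were grouped by their titles. The deposited counts were filtered with filterByExpr, scaled by TMM and fitted in edgeR 4.0.16 (R 4.3.3; glmQLFit, glmQLFTest) with all 15 libraries in 1 model. The authors used DESeq2 with the same limits, which was run as an alternative (1.42.0). P-values were adjusted over 17198 genes. A call needed an adjusted p of 0.01 or less together with a 2-fold change. Intervals are 95% intervals of the fitted log2 fold change. The common biological coefficient of variation was 0.118. The scripts were tested on simulated data.

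The 44 members, the gene lists and the tests were chosen with earlier results of these data known. In each role, values per library are given for the member with the largest mean log2 fold change and the member with the highest mean CPM, and also for members that were called between groups of stimulated cells. BST2, IFITM2 and LGALS3BP, which were not called, were added after their values were seen, as were other members named as examples. Genes of the pathway come from a list of 45, and those named there were chosen after their values were seen. Values of 1 gene of that list are not reported here. Positions and lengths are from GENCODE release 44, and promoters from RefSeq (GRCh38.p14). Alternatives were DESeq2, other scalings, filters and limits, the groups compared alone, a replicate block and leaving out each library.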

Additional observations from a re-analysis of the deposited data

How the results depend on the processing

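Under every alternative run, the number of members called higher against NC stayed between 41 and 43 of 44 in EUC and in EPL, between 39 and 43 in SUC and between 40 and 43 in SPL, and none was called lower. No called result changed direction. The species comparison depended on the limit: with no fold threshold 22 members were higher in the *E. coli* groups in place of 0, and glmTreat against a fold of 1.5 left 0 of these 22. The 22 became 37 without EUC3, EPL1 and SUC3 (an alternative chosen after seeing the data), 28 with DESeq2, 33 with no filter on low counts, and between 15 and 27 when 1 library was left out. For EUC against SUC the 1 call became 16 with no fold threshold, 0 with glmTreat and 0 with only the groups compared in the fit. It ranged from 0 to 1 when 1 library was left out, being 0 without EUC3 or without SUC2. Of 84 single-gene values of the named members, only those of SP100 and ADAR crossed the limits, 8 times over 7 alternatives, of which 1 drops the fold limit. In SPL, SP100 came to 0.93 under upper quartile scaling and 0.89 under library totals alone, and in SUC, ADAR came to 0.99 under library totals alone. Library totals alone moved the median of all genes against NC by between -0.11 and -0.16 on the log2 scale, and IFITM2 in EPL was then below 0, as it was under upper quartile scaling.

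The deviations of same-numbered libraries had correlations from -0.45 to 0.52 over 30 pairs, 7 of them above 0.1. Those of differently numbered libraries ran from -0.48 to 0.49 over 60 pairs, 12 of them above 0.1. EUC3 and SUC3 had 0.52 and EUC1 and SUC1 had 0.39, while EUC1 and EPL1 had -0.45. Whether a number stands for a shared batch was not tested. With a replicate block 41, 41, 40 and 40 members were called higher against NC, 21 were higher in the *E. coli* groups with no fold threshold, and SP100 in SPL, at 1.00 on the log2 scale, fell just under the limit. Total counts differed little between libraries, so depth limits mainly the genes with few counts, such as IFNB1.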
